A study of Culex pipiens pallens and Culex quinquefasciatus with 12 samples.

Results

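CPIJ013765-RA, CPIJ013795-RA and CPIJ013794-RA are gene models for cuticle proteins of the mosquito larva, all 3 on the genomic scaffold supercont3.479. CPIJ013765-RA and CPIJ013795-RA carry the same numbered cuticle protein name in the annotation, while CPIJ013794-RA, which lies next to CPIJ013795-RA, is annotated only as cuticle protein. They are 3 of the 17757 gene models that were read in the series, and were picked by identifier with their levels in each library already known, so their levels, their co-variation and the contrast between the subspecies are given as a description. Of 5 models with that numbered name, the other 3 (CPIJ013787-RA, CPIJ013791-RA and CPIJ003047-RA) serve for comparison. RNA was measured in whole larvae of *Culex pipiens pallens* (7 libraries), a house mosquito of temperate East Asia, and of *Culex pipiens quinquefasciatus* (5 libraries), a house mosquito of warm climates. Each library was made from a pool of 30 larvae. The series is titled for differing resistance, but the labels give no resistance level, strain, treatment, sex or age within the larval stage, and subspecies is the only factor. Since the labels do not say whether the pools came from separate cultures, the p-values reflect the spread among these pools alone, which may be technical.

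The larval cuticle is built by the epidermis from chitin fibres and structural proteins, many of which bind chitin. It is shed and rebuilt at each moult, and in insects generally the genes for its proteins are read in waves around the moult, often from clusters of related copies. The shared name of CPIJ013765-RA and CPIJ013795-RA follows a cuticle protein of the migratory locust. Which layer or stage of the *Culex* cuticle each of these models serves is not annotated in the files.

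The libraries held 3.88 M to 5.18 M uniquely mapped reads (in units of 1e6 reads) on gene models, and 14321 to 15467 models had at least 1 read. Where a model had 0 reads, up to 3 reads are allowed by counting error, or 0.579 to 0.772 CPM, the reads of a model scaled to a common library total. The most similar pair of libraries, pallens 6 and pallens 7, still differed by a chi-square of 16.9 per degree of freedom, more than counting error alone would give. Whether any libraries came from the same larvae cannot be told from it. Pallens 1 and quinquefasciatus 5 were the next most similar pair (19.9) although they carry different labels. Counts of called genes that lead a comparison are therefore also given without those 2 libraries.

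CPIJ013765-RA lies at 185750 to 186379 on the plus strand of supercont3.479, and its model is 571 bases long. CPIJ013794-RA lies at 309125 to 310046 on the minus strand, with a model of 863 bases, and CPIJ013795-RA at 311105 to 312016 on the plus strand, with a model of 851 bases. CPIJ013794-RA and CPIJ013795-RA thus stand head to head, with 1058 bases between their starts, and CPIJ013765-RA is 122745 bases and 28 gene models away from them. The files give no exons, but each span on the scaffold exceeds the model by a short stretch, of 59, 59 and 61 bases. None of the 3 overlaps another model. The scaffold carries 43 read models, and 31 of them are described as cuticle proteins. The libraries do not record the strand, and only uniquely mapped reads were counted. How alike these copies are in sequence was not analysed here.

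CPIJ013795-RA reached the highest level of the 3. RPKM is the authors' read count scaled by model length and library total. It divides by the full length of a model, also where reads covered only part of it. In pallens CPIJ013795-RA ranged from 1.45 RPKM in pallens 4 to 2049 RPKM in pallens 2, with a median of 191 RPKM. The quinquefasciatus libraries 1 to 5 had 156, 252, 104, 7.03 and 0.513 RPKM. The high libraries were pallens 2 and pallens 5 (1723 RPKM), and the low ones were pallens 4, quinquefasciatus 4, quinquefasciatus 5 and pallens 1 (20.9 RPKM). The subspecies overlapped widely, with low libraries in both.

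CPIJ013794-RA, its head-to-head neighbour, followed nearly the same order of libraries. Its highest level was lower than that of CPIJ013795-RA in pallens but not in quinquefasciatus. It ranged in pallens from 0.954 RPKM in pallens 4 to 851 RPKM in pallens 2, with a median of 202 RPKM. The quinquefasciatus libraries 1 to 5 had 131, 278, 97.6, 5.59 and 0.759 RPKM. Again pallens 2 and pallens 5 stood highest and pallens 4 and quinquefasciatus 5 lowest, and the subspecies overlapped.

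CPIJ013765-RA was read at a much lower level and in another order. In pallens it ranged from 0 reads in pallens 1 to 67.8 RPKM (188 reads) in pallens 4, with a median of 13.2 RPKM. The quinquefasciatus libraries 1 to 5 had 2.78, 6.36, 2.04, 0.338 and 0.382 RPKM, which are 8, 16, 6, 1 and 1 reads. Its highest library was the pallens library in which the head-to-head pair was lowest: pallens 4 held 188 reads of CPIJ013765-RA but 4 of CPIJ013794-RA and 6 of CPIJ013795-RA. The 0 reads in pallens 1 allow up to 0.783 CPM there, scaled by the trimmed mean of M values (TMM), so pallens 4 (40.7 CPM) was at least 52.0-fold higher.

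**Figure D1:**
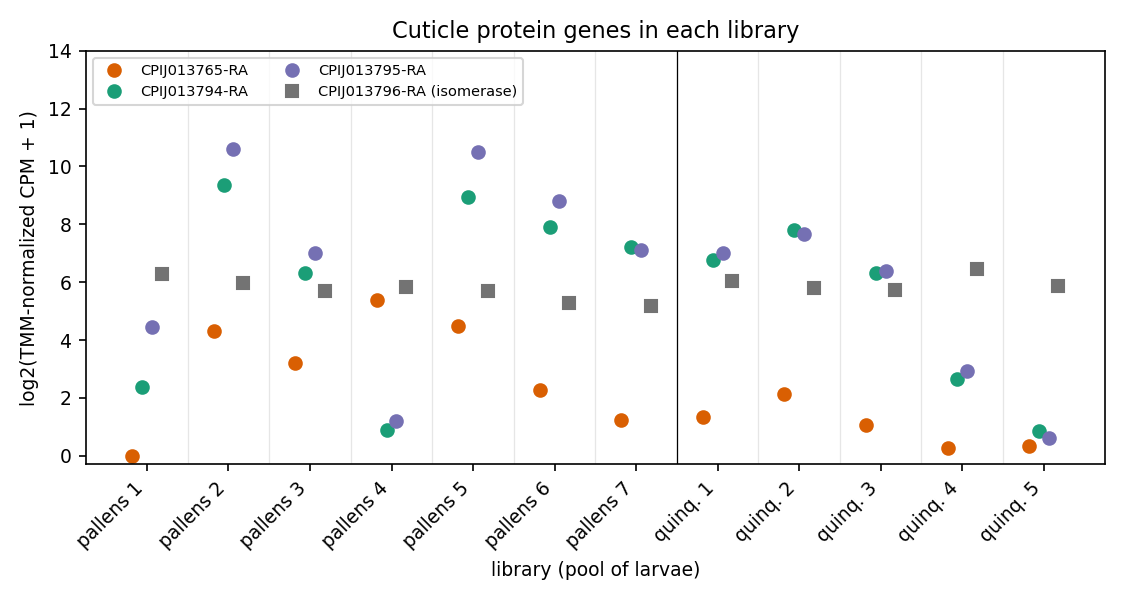
Level of each gene in each library, as log2 of the TMM-normalized CPM plus 1; each point is 1 pool of larvae, with the 7 pallens libraries left of the line and the 5 quinquefasciatus libraries right of it. The green and purple points of the head-to-head pair move together and drop in pallens 4, where the orange CPIJ013765-RA is at its highest, while the grey isomerase gene next to them stays between 35.5 and 87.7 CPM.

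Within pallens, CPIJ013795-RA was 1189-fold higher in its highest library than in its lowest (6 reads), and CPIJ013794-RA 751-fold (4 reads). As a description, the spread of log2(CPM + 1) within the subspecies, pooled over both, was 3.24 for CPIJ013795-RA, 3.15 for CPIJ013794-RA and 1.57 for CPIJ013765-RA. These are ranks 6, 7 and 187 among 10617 tested genes, whose median was 0.41. The nearest gene downstream, CPIJ013796-RA, encodes a mitochondrial enoyl-CoA isomerase, an enzyme of fatty acid oxidation. It lies on the minus strand, and its end, not its start, is 68 bases past the end of CPIJ013795-RA. It ranged from 35.5 to 77.5 CPM in pallens and from 52.2 to 87.7 CPM in quinquefasciatus. Its pooled spread of 0.35 lay under the median of all genes. The model beyond it, the hypothetical CPIJ013797-RA, ranged from 229 to 352 CPM in pallens and from 238 to 541 CPM in quinquefasciatus. The wide swings of the cuticle genes therefore ended between CPIJ013795-RA and CPIJ013796-RA. In whole-larva RNA, fewer cells reading a gene and less RNA of it per cell cannot be told apart.

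Across the 12 libraries the levels of CPIJ013794-RA and CPIJ013795-RA, as log2(CPM + 1), had a Pearson r of 0.98 and a Spearman rho of 0.99, and within the 7 pallens libraries an r of 0.98. CPIJ013765-RA had an r of 0.32 with CPIJ013794-RA (rho 0.50) and of 0.35 with CPIJ013795-RA (rho 0.49). Within pallens these were 0.11 and 0.06. A single library set them: without pallens 4 the r of CPIJ013765-RA was 0.82 with CPIJ013794-RA and 0.85 with CPIJ013795-RA. With the 2 libraries farthest from the median left out, which were pallens 4 and pallens 5 for CPIJ013765-RA, r was 0.80 and 0.82; for the head-to-head pair, without pallens 4 and quinquefasciatus 5, it was 0.95. These correlations describe 12 points that share library and depth, and the genes were chosen with them known, so no p is given. With 5 libraries, quinquefasciatus was not described by itself.

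**Figure D2:**
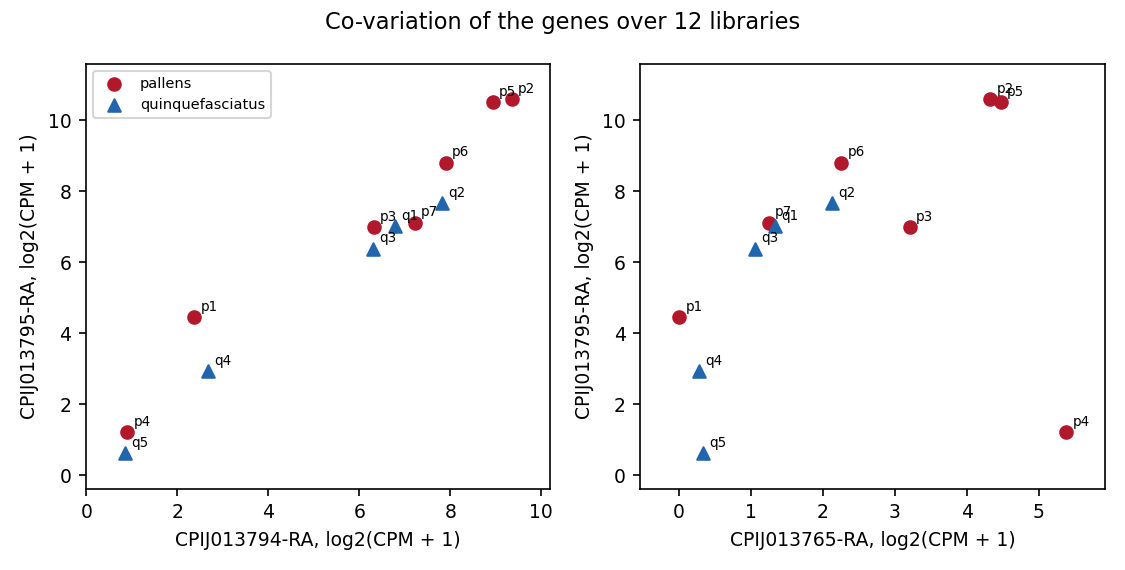
Levels of pairs of genes over the 12 libraries, both axes in log2 of TMM-normalized CPM plus 1; p and q with a number name the pallens and quinquefasciatus libraries. On the left CPIJ013794-RA and CPIJ013795-RA lie close to a line (r = 0.98), and on the right pallens 4 stands alone, high for CPIJ013765-RA and low for CPIJ013795-RA.

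The levels of the head-to-head pair kept nearly the same order of libraries, but their ratio did not stay the same. The RPKM of CPIJ013795-RA divided by that of CPIJ013794-RA was, in pallens, 0.944 at the lowest (pallens 7), 1.90 at the median (pallens 6) and 5.07 at the highest (pallens 1). In quinquefasciatus libraries 1 to 5 it was 1.19, 0.907, 1.07, 1.26 and 0.676. The ratio in pallens 2 was 2.41 (exact 95% interval 2.31 to 2.51) and in pallens 5 it was 2.99 (2.84 to 3.15). In quinquefasciatus 2, the highest library of that subspecies, it was 0.907 (0.830 to 0.991). These intervals cover counting error only. In pallens 2, reads covered 68.5% of CPIJ013794-RA but 91.8% of CPIJ013795-RA, for which RPKM does not adjust. How far coverage sets the ratio was not tested. In pallens 7 the interval was 0.850 to 1.05, so the subspecies overlapped. Pallens 4 (0.361 to 7.33) and quinquefasciatus 5 (0.0565 to 5.90), with 2 to 6 reads of each gene, had intervals on both sides of 1. On the log2 scale the ratio averaged 1.05 ± 0.78 over the pallens libraries (SD, n = 7), against -0.0048 ± 0.36 over the quinquefasciatus libraries (SD, n = 5). The ratio was looked at after the levels were seen and carries no test.

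**Figure D3:**
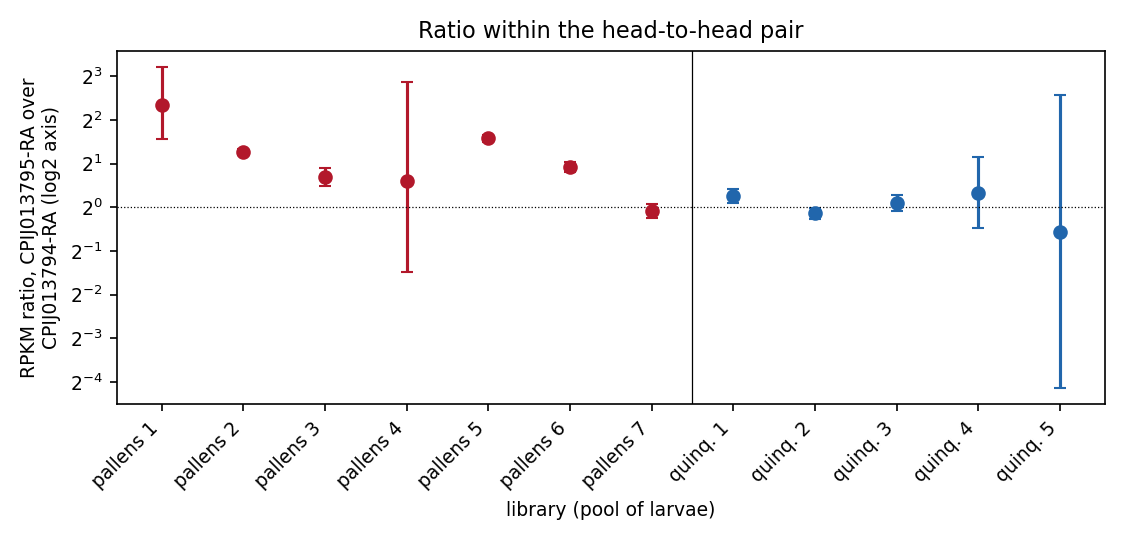
RPKM of CPIJ013795-RA divided by that of CPIJ013794-RA in each library, on a log2 axis, with exact 95% intervals for counting error; pallens libraries are left of the line and quinquefasciatus libraries right of it. All pallens libraries lie above 1 except pallens 7 (0.944), which lies with quinquefasciatus, and the wide bars of pallens 4 and quinquefasciatus 5 come from counts of 2 to 6 reads.

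The contrast of the subspecies was fitted over all genes with the quasi-likelihood test of edgeR. In the pallens libraries CPIJ013765-RA averaged 23.8 ± 24.9 RPKM (SD, n = 7), against 2.38 ± 2.46 RPKM in the quinquefasciatus libraries (SD, n = 5), and its log2 change was 3.33 with an SE of 1.05 (edgeR adjusted p = 0.201). CPIJ013795-RA averaged 668 ± 857 RPKM in pallens and 104 ± 106 RPKM in quinquefasciatus, with a log2 change of 2.67 and an SE of 1.46 (edgeR adjusted p = 0.448). CPIJ013794-RA averaged 287 ± 319 RPKM in pallens and 103 ± 113 RPKM in quinquefasciatus, with a log2 change of 1.46 and an SE of 1.33 (edgeR adjusted p = 0.65). So 0 of the 3 passed the threshold of 0.05, where 0.537% of the 10617 tested genes did (0.339% higher and 0.198% lower in pallens). At an unadjusted p under 0.05 there was 1 of the 3, CPIJ013765-RA, beside 13.0% of the 10617 tested genes. DESeq2 called CPIJ013765-RA (log2 change 3.39, adjusted p = 0.0248) and neither of the others, where it called 2.35% of 13941 genes. Over the 20 alternatives, with edgeR, DESeq2 or limma, the adjusted p of CPIJ013765-RA ran from 0.0248 to 0.513. Without pallens 1 and quinquefasciatus 5, 0 of the 3 passed either, with edgeR adjusted p values of 0.0856 for CPIJ013765-RA, 0.345 for CPIJ013795-RA and 0.575 for CPIJ013794-RA. In none of the 3 did the libraries of the subspecies separate, which happened in 1.22% of all tested genes. In RPKM the SD exceeded the mean in both subspecies for each of the 3 genes.

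Along the scaffold, over all 12 libraries, the head-to-head pair moved with most of the other cuticle models, and CPIJ013765-RA less closely. Of the cuticle models on supercont3.479, 20 passed the filter on low counts. Over the other 17, r had a median of 0.90 with CPIJ013795-RA (0.77 to 0.98), of 0.88 with CPIJ013794-RA (0.71 to 0.98) and of 0.52 with CPIJ013765-RA (0.21 to 0.72). Without pallens 4 the r of CPIJ013765-RA was 0.82 with CPIJ013794-RA and 0.85 with CPIJ013795-RA. Its r with these 17 models was not computed without that library. The other 2 models of the numbered name on the scaffold followed the pair. CPIJ013791-RA, at 301291 to 302175, had 1293 RPKM in pallens 2 and 4.96 RPKM in pallens 4, and an r of 0.98 with CPIJ013795-RA. CPIJ013787-RA, at 272905 to 273783, had 536 RPKM in pallens 2 and 1.99 RPKM in pallens 4, and an r of 0.94. Their log2 changes between the subspecies were 2.46 and 1.63, and neither was called (edgeR adjusted p = 0.462 and 0.614). Directly before the pair lies cuticle protein 8 (CPIJ013793-RA), at an r of 0.98 with CPIJ013794-RA. Its model overlaps that of CPIJ013792-RA, a leucine-rich repeat protein, by 18 bases. CPIJ013792-RA and the serine/threonine kinase models CPIJ013789-RA and CPIJ013790-RA, which lie among these cuticle genes, had 57, 71 and 4 reads over all 12 libraries and were not tested.

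**Figure D4:**
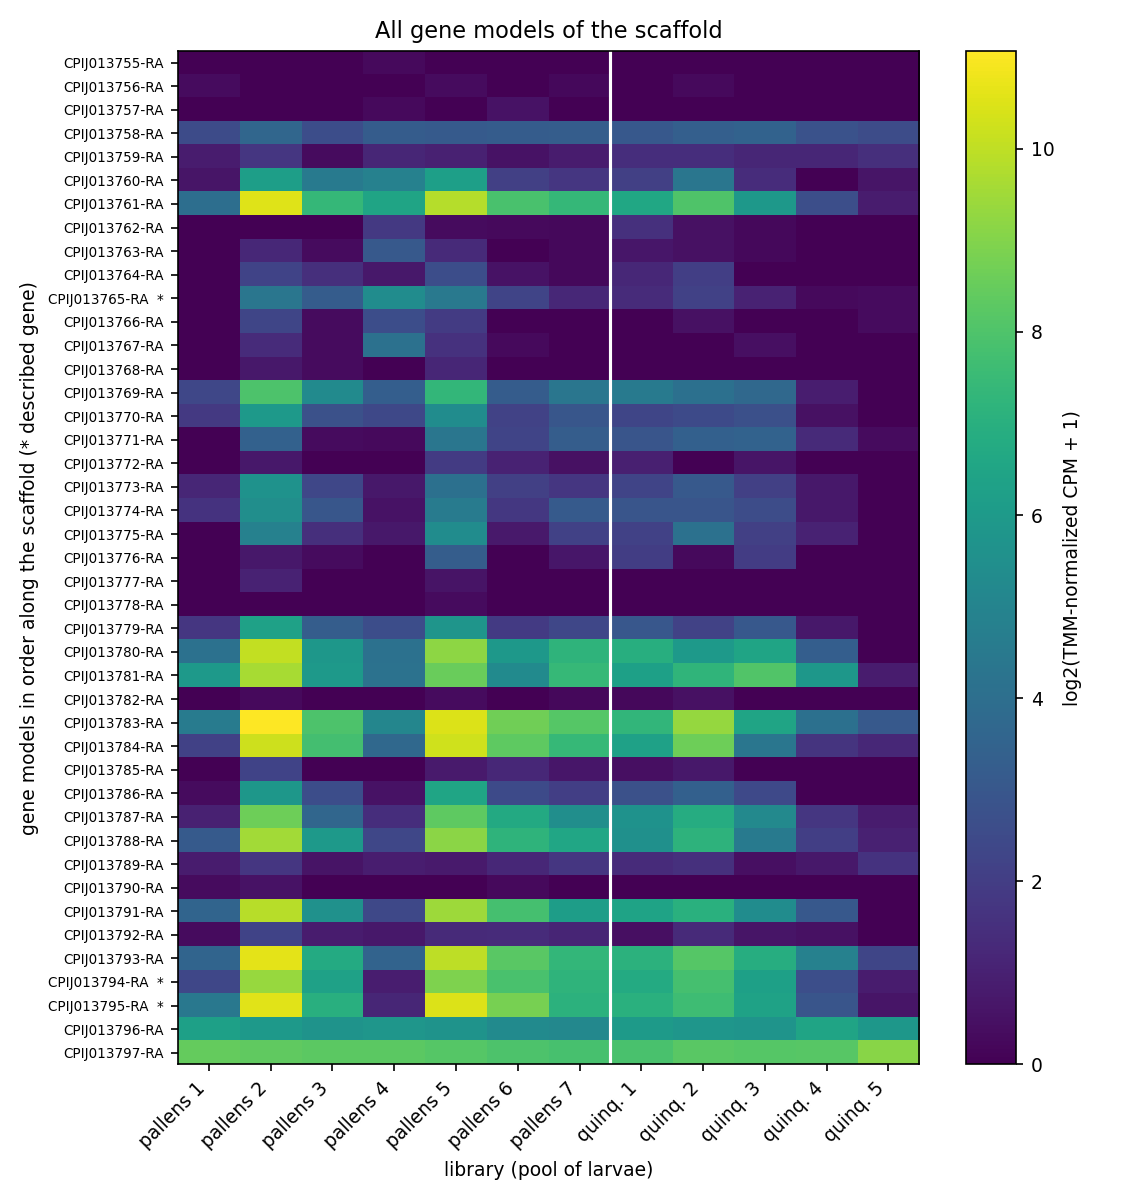
Every read gene model of the scaffold in its order (rows; the 3 described genes carry a star) in each library (columns; pallens left of the line, quinquefasciatus right of it), coloured by log2 of TMM-normalized CPM plus 1. Most cuticle models are brightest in pallens 2 and pallens 5 and dark in quinquefasciatus 5. Most of a short run of little-read models around CPIJ013765-RA is brightest in pallens 4, and the last 2 models are nearly even.

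Most models around CPIJ013765-RA also had their highest level in pallens 4, though on few reads. In the run of 6 models from CPIJ013762-RA to CPIJ013767-RA, at 179213 to 197644, 5 had their highest level in pallens 4, including CPIJ013765-RA itself. CPIJ013767-RA, annotated as cuticle protein 7, had 75 reads in pallens 4 and 7 in pallens 2. CPIJ013763-RA, also cuticle protein 7, had 35 and 6 reads there, CPIJ013766-RA had 24 and 18, and CPIJ013762-RA had 12 and 0. CPIJ013762-RA also reached 10 reads in quinquefasciatus and averaged 0.504 CPM there, against 0.468 CPM in pallens. For CPIJ013762-RA and CPIJ013766-RA the lead of pallens 4 is thus small beside counting error. Reads covered at most 20.6% of CPIJ013763-RA and 35.4% of CPIJ013767-RA in any library. The exception was CPIJ013764-RA, 704 bases from CPIJ013765-RA, with 3 reads in pallens 4 and 17 in pallens 2. Except for CPIJ013765-RA, these models had too few reads to be tested, and the run was picked after its values were seen. On another scaffold, supercont3.45 at 1431203 to 1431577, the fifth model of that name, CPIJ003047-RA, had 27 reads in pallens 4 and 0 to 3 in each other library, and was not tested either. On both sides of the run the peak lay elsewhere. Larval cuticle protein A3A (CPIJ013761-RA) had its highest level in pallens 2 (1498 CPM, against 86.5 CPM in pallens 4), and so had the pupal cuticle models CPIJ013769-RA and CPIJ013770-RA (248 and 63.4 CPM). CPIJ013768-RA, between them, had 9 reads in all. The gene most like CPIJ013765-RA on the scaffold was CPIJ013760-RA, described as DbuzCcp5-PA, with an r of 0.92.

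The described genes most like the mean profile of the 3, by Pearson r of log2(CPM + 1) over 12 libraries, were mostly cuticle genes. That mean mainly follows the head-to-head pair, whose levels spread more widely than those of CPIJ013765-RA. Among the 10 described genes with the highest r, 9 were cuticle proteins and 7 lay on the same scaffold. The 7 were the pupal cuticle protein CPIJ013783-RA (0.99), CPIJ013788-RA (0.99), CPIJ013791-RA (0.98), CPIJ013793-RA (0.98), CPIJ013784-RA (0.97), CPIJ013787-RA (0.96) and CPIJ013761-RA (0.95). With CPIJ013765-RA alone their r ran only from 0.43 (CPIJ013787-RA) to 0.72 (CPIJ013761-RA). From supercont3.46 came a pair of larval/pupal cuticle protein H1C models, CPIJ002801-RA (0.96) and CPIJ002800-RA (0.96). The tenth was yellow-e (CPIJ005788-RA, 0.96), of the family of the *Drosophila* pigmentation gene yellow. None of the 10 was called between the subspecies. Cuticle genes were 14 of the 50 genes most like this mean profile, 13 for CPIJ013795-RA, 14 for CPIJ013794-RA and 8 for CPIJ013765-RA, or 28.0%, 26.0%, 28.0% and 16.0%, where they were 0.679% of the 10610 genes ranked. Of those 50 genes, 11 were on supercont3.479 for CPIJ013795-RA and 10 for CPIJ013794-RA, and 1 for CPIJ013765-RA.

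The breadth of coverage was low for CPIJ013794-RA beside its read numbers. Whether coverage played a part in the choice of the genes is not known. The authors' files give the percent of each model that reads covered. CPIJ013794-RA reached 68.5% in pallens 2 with 2967 reads, 64.9% in pallens 5 with 1932 reads and 63.0% in quinquefasciatus 2 with 1058 reads. Models within 1.5-fold of its reads and length in the same library had a median of 97.4% in pallens 2, and 4 of 71 were covered less. In the 8 libraries with at least 100 reads of the gene, 2.86% to 7.69% of such models were covered less. CPIJ013795-RA reached 91.8% in pallens 2 with 7046 reads, against a median of 98.9% in 57 such models. In its 8 libraries with at least 100 reads, 9.13% to 21.4% of such models were covered less. Its coverage also differed at like read numbers, with 66.0% in pallens 3 (491 reads) and 90.5% in quinquefasciatus 3 (459 reads). CPIJ013791-RA, of the same name, was covered at 43.4% to 80.1% and CPIJ013787-RA at 66.6% to 78.3% in their libraries with at least 100 reads. The isomerase gene CPIJ013796-RA was covered at 95.1% to 99.4% with 170 to 409 reads. Which bases were missed is not given in the files used here.

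**Figure D5:**
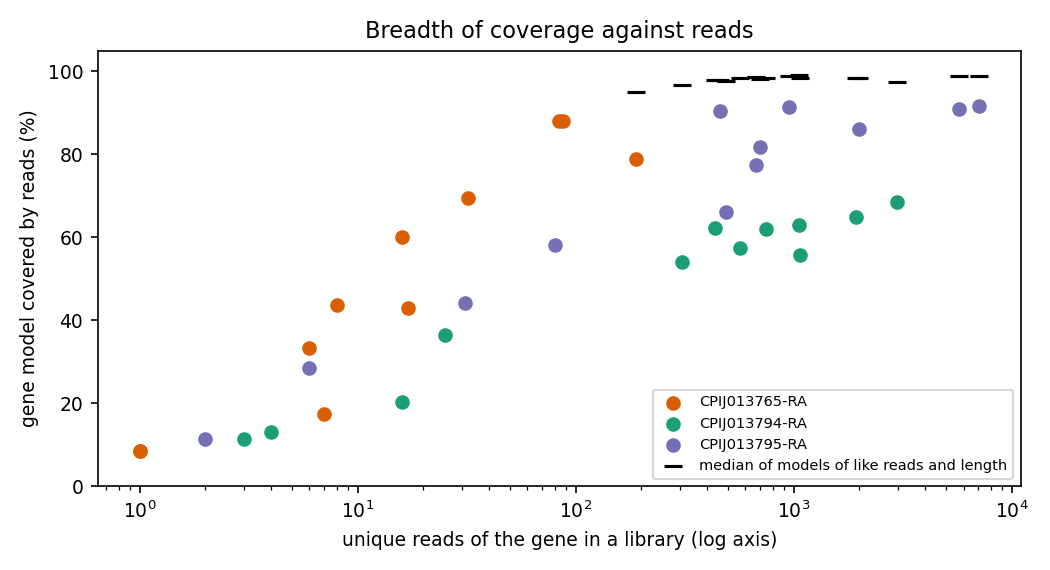
Percent of each gene model covered by reads against the unique reads of the gene in a library (log axis); each coloured point is 1 gene in 1 library with at least 1 read, and each black dash is the median of models of like reads and length in a library where the gene had at least 100 reads. The green points of CPIJ013794-RA level off below 70% while the dashes lie above 94%.

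Other genes of cuticle formation were described by counts in lists defined by words in the annotation. Of 147 models of cuticle proteins 76 were tested, and 0 passed the threshold between the subspecies in either direction, while 10 of the 76 had an unadjusted p under 0.05, beside 13.0% of all tested genes. Their median log2 change, without the 3 genes, was 1.19, where that of all tested genes was 0.02. The CPM of these genes summed to 32639 in pallens 2, 28581 in pallens 5 and 19921 in pallens 3. It was 2806 to 4805 in the other pallens libraries and 2090 to 16807 in quinquefasciatus. How far a few libraries set the medians of this and the other cuticle lists was not tested. DESeq2 called 2 cuticle genes, CPIJ013765-RA and CPIJ001839-RA, beside 328 (2.35%) of all 13941 genes. Without pallens 1 and quinquefasciatus 5, edgeR called CPIJ001839-RA, beside 366 of all 10764 genes. In the pallens libraries CPIJ001839-RA averaged 63.7 ± 62.7 CPM (SD, n = 7), against 7.26 ± 7.19 CPM in the quinquefasciatus libraries (SD, n = 5), with an edgeR adjusted p of 0.139. Of 5 tested larval cuticle genes and 26 pupal and adult ones 0 passed, with medians of 1.32 and 1.67. The smallest p among the larval ones was that of CPIJ004289-RA (log2 change 3.18, edgeR adjusted p = 0.225), and among the pupal ones that of CPIJ013770-RA (2.58, edgeR adjusted p = 0.301). Of 23 genes of chitin synthesis and breakdown 1 rose, chitotriosidase-1 (CPIJ019120-RA, log2 change 1.66, edgeR adjusted p = 0.00937), and 0 fell, with a median of -0.05. It had 74.8 ± 12.8 CPM in pallens (SD, n = 7), against 23.7 ± 6.02 CPM in quinquefasciatus (SD, n = 5). DESeq2 called 3 genes of this list higher in pallens, beside 184 of all 13941 genes. Brain chitinase (CPIJ004564-RA) had the next smallest p, with a log2 change of 0.97 (edgeR adjusted p = 0.136). Of 21 genes of cuticle hardening and pigmentation 0 passed, with a median of 0.41, and the smallest p was that of a yellow protein (CPIJ018481-RA, 0.91, edgeR adjusted p = 0.278). The mean of this list had an r of 0.83 with CPIJ013795-RA, 0.79 with CPIJ013794-RA and 0.69 with CPIJ013765-RA. Of 34 genes of moulting hormones 0 passed, with a median of -0.14, and the smallest p was that of a juvenile hormone-inducible protein (CPIJ001964-RA, -1.08, edgeR adjusted p = 0.133). Without pallens 1, edgeR called 4 of these genes lower in pallens, beside 149 of all 10536 genes. DESeq2 called 1 lower, beside 144 of 13941, and edgeR without pallens 1 and quinquefasciatus 5 called 1, beside 179 of 10764. The mean of the moulting hormone genes had an r of -0.39 with CPIJ013795-RA, -0.46 with CPIJ013794-RA and -0.31 with CPIJ013765-RA.

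The libraries with high and low levels of the 3 genes also differed in their cuticle and gut genes as a whole. Without the 3 genes, the CPM of the tested cuticle genes summed in pallens to 2806 at the lowest (pallens 1), 4805 at the median and 32639 at the highest (pallens 2), and in quinquefasciatus libraries 1 to 5 to 5877, 16807, 2633, 2181 and 2090. Pallens 4 had 3278 CPM, so CPIJ013765-RA peaked in a library where the cuticle genes together were low. At least 2 and at most 13 of the 76 cuticle genes had no read in a quinquefasciatus library, and 0 to 6 in a pallens library. The mean log2(CPM + 1) of the list, without the 3 genes, had an r of 0.81 with CPIJ013795-RA, 0.79 with CPIJ013794-RA and 0.69 with CPIJ013765-RA over 12 libraries.

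Levels of digestive genes of the midgut were inversely related to those of the head-to-head pair. Of 104 models of trypsins and chymotrypsins, the digestive serine proteases, 52 were tested, and their CPM summed to 3743 to 13308 in pallens and 7875 to 16940 in quinquefasciatus, with 0 or 1 of them at 0 reads in a library. Their mean had an r of -0.85 with both CPIJ013795-RA and CPIJ013794-RA and of -0.59 with CPIJ013765-RA. The highest sums were in quinquefasciatus 5, quinquefasciatus 4 and pallens 1, followed by pallens 4 (9433 CPM). These are the 4 libraries in which the head-to-head pair was lowest. Next came quinquefasciatus 1 (8557 CPM), which by mean log2(CPM + 1) stood above pallens 4 (5.31 against 5.24). The 12 larval storage proteins of the fat body, all tested and none at 0 reads, summed to 32416 to 170834 CPM in pallens and 89540 to 162283 CPM in quinquefasciatus, with an r of -0.34 with CPIJ013795-RA. The 50 tested muscle genes summed to 32090 to 77292 CPM in pallens and 44474 to 87517 CPM in quinquefasciatus (r = -0.25), with 0 to 2 of them at 0 reads. The 68 tested cytosolic ribosomal protein genes summed to 83560 to 162264 CPM in pallens and 75597 to 114619 CPM in quinquefasciatus (r = 0.01). Between the subspecies, 0 of the proteases, storage proteins and muscle genes passed the edgeR threshold, with medians of -0.45, -0.31 and -0.04 on the log2 scale, and 15 of 52, 0 of 12 and 10 of 50 had an unadjusted p under 0.05, beside 13.0% of all tested genes. DESeq2 called 5 proteases lower in pallens, beside 144 of all 13941 genes. Limma on log2(RPKM + 1) called 2 lower, beside 33 of 10617, and edgeR without pallens 1 called 2, beside 149 of 10536. Without quinquefasciatus 5, edgeR called 1 protease higher and 1 lower in pallens, 1 storage protein higher and 1 muscle gene higher. Over all 10849 genes it then called 139 higher and 70 lower. Without pallens 1 as well, 1 muscle gene was also called lower, beside 187 higher and 179 lower of 10764 genes. The protease of smallest p, a chymotrypsinogen (CPIJ002139-RA), had a log2 change of -1.12 (edgeR adjusted p = 0.0534). Of the ribosomal protein genes 1 rose, the S10 model CPIJ007531-RA (log2 change 1.58, edgeR adjusted p = 0.0244), and 0 fell, with a median of 0.32. That model was little read, with 3.53 ± 0.864 CPM in pallens (SD, n = 7), against 1.16 ± 0.316 CPM in quinquefasciatus (SD, n = 5). Its quinquefasciatus level lay near the 0.579 to 0.772 CPM that 3 reads make. No ribosomal gene was called when any single one of pallens 3, 6 or 7 or quinquefasciatus 1, 2, 3 or 4 was left out. In those fits only 9 to 28 of all 10477 to 10841 genes were called. Without quinquefasciatus 5, 2 ribosomal genes were called higher, beside 139 of all 10849 genes. Without pallens 1 as well, 2 were called higher, beside 187 of 10764. Of the storage, protease and muscle genes that mark larval tissue, at most 2 of a list were thus at 0 reads in any library. The part of these lists in the levels of the 3 genes was not tested.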

How the data were processed

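Whole-larva poly(A) RNA was sequenced from 12 pools of 30 larvae (7 pallens, 5 quinquefasciatus) in libraries without strand, per the labels' protocols. The authors deposited, per the file headers, the count of uniquely mapped reads per gene model, the model length, the percent of the model covered and an RPKM value. The counts summed to the header total in every library (3884521 to 5182656 reads), and RPKM equalled count over length and total. The sources used here give no aligner, counter or genome build, and 0 identifiers matched the RefSeq table of another assembly, so no sequence was read. A model absent from a table was set to 0 reads.

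The main test was edgeR 4.0.16 (R 4.3.3) on the counts, with TMM, filterByExpr, robust dispersion and pallens minus quinquefasciatus, over 10617 genes with Benjamini-Hochberg adjustment. The SE is the log2 change over the root of the F statistic. Correlations used log2(TMM CPM + 1), without p. The numbered name shared by CPIJ013765-RA, CPIJ013795-RA, CPIJ013787-RA, CPIJ013791-RA and CPIJ003047-RA is cuticle protein 18.6 in the deposited annotation. The 3 genes and the lists were chosen with earlier results of these data known. Named genes were the 3, the models within 5 places of them, other models of the same name, the 10 described genes most like their mean, and, from each list, genes with the smallest p (the rule took 2 a list, of which the first is mostly given). Tested on simulated counts of this contrast with 10617 genes, the test recovered 22 of 100 genes given a 2-fold change and 83 of 100 given a 4-fold change, and 2 of its 107 calls were false. The changed genes were picked at random. The 3 genes spread far more within the subspecies (pooled SD 1.57 to 3.24, where the median gene had 0.41), so these rates do not apply to them. Alternatives used DESeq2 1.42.0, limma 3.58.1, other normalizations, filters and pseudocounts, and libraries left out.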

Additional observations from a re-analysis of the deposited data

How the results depend on the processing

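The log2 changes of the 3 genes kept their positive sign under all 20 alternatives run. With 1 library left out they ranged from 2.74 to 4.01 for CPIJ013765-RA, from 0.94 to 2.24 for CPIJ013794-RA and from 2.12 to 3.28 for CPIJ013795-RA, and none was called. CPIJ013765-RA was called only by DESeq2, at a log2 change of 3.39; limma on log2(RPKM + 1) gave 2.18. The 57 genes called over all libraries became 328 with DESeq2, 9 to 229 with 1 library left out (229 without pallens 1, 209 without quinquefasciatus 5), and 366 without pallens 1 and quinquefasciatus 5, an alternative chosen after seeing the data.

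The r of CPIJ013794-RA and CPIJ013795-RA ranged from 0.97 to 0.99 with 1 library left out, was 0.98 on deviations from the subspecies means and 0.95 without the 2 farthest libraries. The r of CPIJ013765-RA ranged from 0.20 to 0.82 with CPIJ013794-RA and from 0.22 to 0.85 with CPIJ013795-RA with 1 library left out, and was 0.80 and 0.82 without the 2 farthest, also chosen after seeing the data; pallens 4 made that difference. No paired analysis was possible because the labels number the libraries without repeats, so that no label ties a pallens library to a quinquefasciatus one, and the numbers used here only name the libraries. Counts of 1 to 16 reads limit CPIJ013765-RA in quinquefasciatus. A check for outlying values, the gap to the nearest value over the range, flagged 0 of 14 groups of values. With only 5 or 7 libraries in a subspecies, just a very large gap can be flagged, so no conclusion on outlying libraries is drawn from it. Pallens 4 changed the r of CPIJ013765-RA although no group was flagged.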
